A study of Mus musculus with 5 samples.

Results

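The 10 genes described here make up the arm of the stress response that runs from the kinase PERK to the transcription factor ATF4: Eif2ak3, Eif2ak4, Ppp1r15a, Ppp1r15b, Atf4, Atf5, Ddit3, Cebpb, Cebpg and Trib3. They were chosen by name, as the kinases, phosphatase subunits, transcription factors and targets of this pathway, out of 56691 genes in the count table. Earlier results of these data were known when they were chosen. The 10 symbols matched 11 Ensembl IDs, because Ddit3 has 2. All 10 genes had enough counts to be tested, as had 30580 genes in all. The cells were mouse NK cells from spleen that had undergone CRISPR editing, in 3 libraries labelled Fli1 KO and 2 libraries labelled NTC, the control. FLI1 belongs to the ETS transcription factors. The strain, age and sex of the mice, the guides, the culture conditions and the time after editing are not stated, nor whether libraries came from separate animals, so a p-value here reflects only how far the 5 libraries spread, which may be technical.

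Several stresses are sensed by kinases that phosphorylate the translation factor eIF2 on its alpha subunit. PERK, the product of Eif2ak3, sits in the membrane of the endoplasmic reticulum (ER) and responds to unfolded protein, while GCN2, the product of Eif2ak4, responds to uncharged tRNA when amino acids run short. Phosphorylated eIF2 lowers most translation but favours that of a few mRNAs with upstream open reading frames, among them Atf4, whose product then switches on genes of amino acid supply, redox defence and, through CHOP (Ddit3), cell death. The phosphatase subunits GADD34 (Ppp1r15a) and CReP (Ppp1r15b) direct protein phosphatase 1 to eIF2 and so restore translation. Counts of RNA report neither kinase activity nor the translation of Atf4.

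The libraries held 4718390 to 5643791 counts. Values are in CPM (counts-per-million after TMM scaling). Fli1 RNA stood at 390, 320 and 361 CPM in Fli1 KO 1 to 3 and at 322 and 279 CPM in NTC 1 and NTC 2. This did not separate the groups (edgeR quasi-likelihood test, adjusted p = 0.641), and whole-gene counts cannot show small lesions at a cut site. Directions therefore rest on the labels. All 11 NK markers lay over 3 times background, the level expected for a gene's exon length from silent olfactory and vomeronasal receptor genes. Their summed level was 5977 to 8540 CPM in Fli1 KO and 4541 to 6419 CPM in NTC, most of it from Gzmb, Prf1 and Il2rb. The markers did not move together. Il2rb and Prf1 were higher in all Fli1 KO libraries than in both controls, while Ncr1, Klrk1 and Tbx21 were lower. At an adjusted p under 0.05, 0 of the 11 were higher and 0 lower. Of 8 T cell, 6 B cell, 4 plasma cell and 7 erythroid and platelet markers, 1, 0, 0 and 0 lay over 3 times background (Trac, at 3.63 to 6.86 CPM). Of 9 myeloid markers 2 did, Itgax, which NK cells also express, and Cd68. The myeloid sum was 342 to 367 CPM in Fli1 KO and 252 to 369 CPM in NTC, and Lyz2, S100a8 and S100a9 were each under 2 CPM in every library. The part of other cells in the results was not tested. A single satellite-like transcript, Gm10800, took 10.3% of the counts in NTC 1, 18.98% in NTC 2 and 13.8% to 16.4% in Fli1 KO.

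Of the 10 genes, Eif2ak3, Ppp1r15a, Atf4 and Cebpb rose in Fli1 KO, by 1.66-fold, 3.32-fold, 1.70-fold and 2.18-fold, and 0 fell at an adjusted p under 0.05 (called, below). Of these 4 calls 1 was left without Fli1 KO 1, 2 without Fli1 KO 3 and 3 without NTC 2. The background for these calls was 0.458% of all tested genes called higher and 0.0883% called lower. Among the 7603 genes over 3 times background, 1.71% were called higher and 0.289% lower. Because the 10 genes were chosen with earlier results known, setting their calls beside these shares is a description only. Eif2ak4, Atf5, Cebpg and Trib3 had log2 fold changes between −0.16 and 0.13, with groups that overlapped. Ppp1r15b and Ddit3 lay between, at 0.44 and −0.59, with groups that did not overlap but adjusted p-values of 0.287 and 0.319. In bulk RNA, a change in the RNA of each cell and a change in the share of cells that hold it cannot be told apart.

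**Figure D1:**
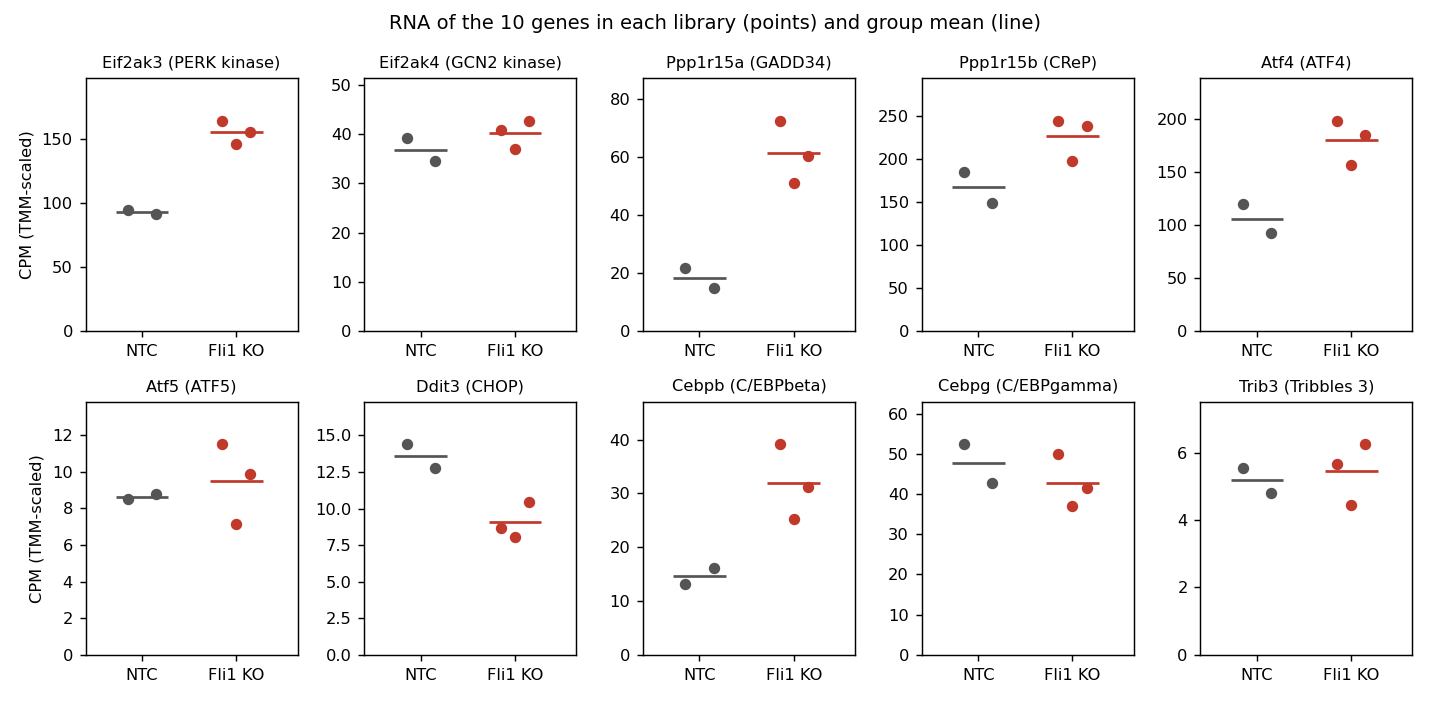
CPM scaled with TMM factors (vertical axes, linear, from 0) for each of the 10 genes in the 2 NTC libraries (grey) and the 3 Fli1 KO libraries (red). Points are libraries, in the order of their replicate numbers, and lines are group means. In Eif2ak3, Ppp1r15a, Ppp1r15b, Atf4 and Cebpb all red points lie above both grey ones, in Ddit3 all lie below, and in the other 4 genes the groups overlap.

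DNA at the start of these genes is shown for the 4 that rose and for Ddit3, whose counts went the other way, in each case upstream of the start. For Trib3, whose window alone held the element best known for ATF4, the stretch shown is the first 30 bases from the start on, since the match lies downstream of it. Sequences are RefSeq promoter windows on GRCm38.p6, printed 5′ to 3′ on the gene's strand, with matches in capitals. Windows ran from 250 bases before to 50 bases after a start. They were found for 9 of the 10 genes (Eif2ak4 and Atf5 have 2 each), and shares are over 32851 such windows. Both strands were searched for TGATGNAAN, the C/EBP-ATF response element (3.95% of windows), TGACGTCA, the cyclic AMP response element or CRE (1.79%), its shorter core TGACG, which the full CRE contains (20.8%), CCAAT (37.4%), the ETS element CCGGAAGT (3.89%), GCGTGGGCG, bound by EGR factors (0.612%), the CArG box (1.63%) and the ER stress response element (0.119%). A match is a description of letters, not evidence of binding.
Eif2ak3, chr6:70844395-70844514, plus strand, CCAAT marked: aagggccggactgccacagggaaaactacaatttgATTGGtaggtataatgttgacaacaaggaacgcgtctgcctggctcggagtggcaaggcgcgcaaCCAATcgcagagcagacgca
Ppp1r15a, chr7:45526269-45526388, minus strand, CRE marked: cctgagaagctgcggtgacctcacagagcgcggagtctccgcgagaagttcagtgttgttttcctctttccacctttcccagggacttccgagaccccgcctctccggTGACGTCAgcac
Atf4, chr15:80255064-80255183, plus strand, CCAAT and the CRE core marked: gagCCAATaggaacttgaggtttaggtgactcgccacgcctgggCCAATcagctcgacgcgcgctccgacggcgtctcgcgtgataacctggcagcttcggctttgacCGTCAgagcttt
Cebpb, chr2:167688795-167688914, plus strand, the CRE core marked: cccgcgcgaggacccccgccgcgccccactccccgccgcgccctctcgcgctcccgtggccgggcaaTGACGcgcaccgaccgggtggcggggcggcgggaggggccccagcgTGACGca
Ddit3, chr10:127290573-127290732, plus strand, the ETS element and CCAAT marked: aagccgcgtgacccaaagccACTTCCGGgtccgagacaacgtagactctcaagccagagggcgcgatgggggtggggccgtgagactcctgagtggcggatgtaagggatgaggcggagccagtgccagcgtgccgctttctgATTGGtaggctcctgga
Trib3, chr2:152344031-152344060, minus strand, the C/EBP-ATF element marked: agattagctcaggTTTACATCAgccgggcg

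These windows differed between the genes that rose. The full CRE was found in Ppp1r15a alone, starting 12 bases before its start site, and the core TGACG in Ppp1r15a, Atf4 and Cebpb but not in Eif2ak3, whose window held 6 CCAAT boxes. Of the genes that were not called, Trib3 and the second Eif2ak4 window also held the core. The exact letters of the ETS element were found in Ddit3 alone, starting 200 bases before its start. Near matches were not searched, and the Ppp1r15a stretch printed above holds such a near match (acttccg) on the other strand. The search thus does not show that the other windows lack ETS-like sites. The EGR element, the CArG box and the ER stress response element were in none of the windows of these genes.

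Of the kinase genes Eif2ak3 rose and Eif2ak4 was not called. Eif2ak3 (ENSMUSG00000031668, GRCm38 chromosome 6, 70844515 to 70905245, plus strand) stood at 164, 146 and 155 CPM in Fli1 KO 1 to 3 and at 94.8 and 91.5 CPM in NTC 1 and NTC 2. The groups were far apart compared with the spread within either. Fli1 KO averaged 155 ± 9.26 CPM (SD, n = 3) against 93.2 ± 2.36 CPM in NTC (SD, n = 2). On the log2 scale this was 0.73 (SE 0.13, 95% interval 0.46 to 1.01, edgeR adjusted p = 0.00729). Eif2ak4 (ENSMUSG00000005102, chromosome 2, 118388618 to 118475234, plus strand) stood at 40.8, 36.9 and 42.7 CPM in Fli1 KO and at 39.2 and 34.5 CPM in NTC. These ranges overlapped, and the log2 fold change of 0.12 (SE 0.15) had an interval of −0.18 to 0.42 (edgeR adjusted p = 0.874). The Eif2ak3 count was 4.03, 3.95 and 3.63 times that of Eif2ak4 in Fli1 KO and 2.42 and 2.65 times in NTC, a ratio taken within each library, which does not depend on the scaling between libraries. Eif2ak3 was not called without Fli1 KO 1 (0.70, adjusted p = 0.111) or Fli1 KO 3 (0.75, adjusted p = 0.158). An antisense transcript, Gm43292, overlaps 8.0% of its exonic bases, and the strand setting of the counts is not given.

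Of the phosphatase subunits the inducible one rose most among the 10 genes. Ppp1r15a (ENSMUSG00000040435, chromosome 7, 45522916 to 45526268, minus strand), which encodes the inducible subunit GADD34, stood at 72.4, 51.0 and 60.3 CPM in Fli1 KO and at 21.7 and 14.8 CPM in NTC. The lowest Fli1 KO library was thus above both NTC libraries by more than the range within either group. Means of 61.2 ± 10.7 CPM (SD, n = 3) and 18.3 ± 4.84 CPM (SD, n = 2) gave a log2 fold change of 1.73 (SE 0.19, interval 1.35 to 2.12, edgeR adjusted p = 9.84e-06). This gene ranked 16 of 30580 by p-value and was called in all 14 other fits, with log2 fold changes from 1.502 without NTC 2 to 2.06 without NTC 1.

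Ppp1r15b (ENSMUSG00000046062, chromosome 1, 133131143 to 133139783, plus strand), which encodes the constitutive subunit CReP, was the more abundant of the pair. It stood at 245, 197 and 239 CPM in Fli1 KO and at 185 and 149 CPM in NTC, so that Fli1 KO 2 lay close to NTC 1. The log2 fold change was 0.44 (SE 0.15, interval 0.13 to 0.74, edgeR adjusted p = 0.287). Leaving out NTC 1 gave 0.62 with an adjusted p of 0.0202. A transcript on the other strand, Gm26616, overlaps 11.4% of its exonic bases. The ratio of Ppp1r15a to Ppp1r15b counts was 0.296, 0.259 and 0.252 in Fli1 KO and 0.117 and 0.0993 in NTC, a log2 difference of 1.31 in favour of Ppp1r15a in Fli1 KO.

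Atf4 (ENSMUSG00000042406, chromosome 15, 80255184 to 80257541, plus strand) was counted at 199, 157 and 185 CPM in Fli1 KO and at 120 and 92.5 CPM in NTC. Every Fli1 KO library exceeded NTC 1, the higher control, although the controls themselves lay apart. Means of 180 ± 21.3 CPM (SD, n = 3) and 106 ± 19.2 CPM (SD, n = 2) gave a log2 fold change of 0.76 (SE 0.15, interval 0.45 to 1.07, edgeR adjusted p = 0.0143). The call was lost without Fli1 KO 1 (0.70, adjusted p = 0.229), Fli1 KO 3 (0.76, adjusted p = 0.219) or NTC 2 (0.60, adjusted p = 0.175).

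Atf5 (ENSMUSG00000038539, chromosome 7, 44812256 to 44816658, minus strand) encodes the closest relative of ATF4 in this set and is, like Atf4, translated preferentially under stress. It was counted only 57, 40 and 49 times in Fli1 KO and 49 and 42 times in NTC, which is 11.5, 7.13 and 9.87 CPM against 8.50 and 8.77 CPM. Both controls lay inside the range of the Fli1 KO libraries. At this depth a single count has a wide error (exact 95% Poisson interval for 40 counts, 28.6 to 54.5), and the interval of the log2 fold change of 0.13 ran from −0.36 to 0.62 (edgeR adjusted p = 0.928).

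Ddit3, the gene of the death-linked factor CHOP (ENSMUSG00000025408, chromosome 10, 127290774 to 127296288, plus strand), was counted 43, 45 and 52 times in Fli1 KO and 83 and 61 times in NTC. In CPM these are 8.68, 8.03 and 10.5 against 14.4 and 12.7, so that all 3 Fli1 KO libraries lay below both controls, opposite to Atf4. The log2 fold change of −0.59 (SE 0.21, interval −1.02 to −0.16) had an edgeR adjusted p of 0.319, and only its unadjusted p was under 0.05. It was negative in every fit, from −0.72 to −0.48, and called in 0 of 14. A second Ddit3 ID (ENSMUSG00000116429) has 105 exonic bases, all inside those of the first, and was listed at 0 in every library. How reads in that shared stretch were assigned is not given. The tRNA synthetase gene Mars overlaps another 4.0% of the Ddit3 exonic bases on the other strand.

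Cebpb (ENSMUSG00000056501, chromosome 2, 167688915 to 167690418, plus strand) encodes C/EBPbeta, a dimer partner of ATF4 and of CHOP. It stood at 39.1, 25.3 and 31.2 CPM in Fli1 KO and at 13.2 and 16.1 CPM in NTC. The groups did not overlap, averaging 31.9 ± 6.93 CPM (SD, n = 3) against 14.6 ± 2.06 CPM (SD, n = 2), with a log2 fold change of 1.13 (SE 0.20, interval 0.72 to 1.53, edgeR adjusted p = 0.00479). The call was lost in 1 of 14 other fits, without Fli1 KO 1 (0.96, adjusted p = 0.10). Tmem189 on the other strand overlaps 20.7% of the Cebpb exonic bases.

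Cebpg (ENSMUSG00000056216, chromosome 7, 35046422 to 35056573, minus strand), the gene of C/EBPgamma, which pairs with ATF4 at amino acid genes, stood at 49.8, 36.9 and 41.5 CPM in Fli1 KO and at 52.4 and 42.8 CPM in NTC. The groups overlapped and the log2 fold change was −0.16 (SE 0.15, interval −0.48 to 0.16, edgeR adjusted p = 0.826). The ratio of Cebpb to Cebpg counts was 0.785, 0.686 and 0.752 in Fli1 KO and 0.252 and 0.376 in NTC, so that the balance between these partners of ATF4 differed by 1.26 on the log2 scale.

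Trib3 (ENSMUSG00000032715, chromosome 2, 152337422 to 152344032, minus strand) encodes a pseudokinase that is a textbook target of ATF4 and CHOP and binds ATF4 in turn. It was counted 28, 25 and 31 times in Fli1 KO and 32 and 23 times in NTC, or 5.65, 4.46 and 6.25 CPM against 5.55 and 4.80 CPM. Its mean was 1.60 times background, so this gene was hardly above the level of silent genes in any library. The log2 fold change was 0.06 (SE 0.28), and its interval of −0.51 to 0.63 leaves room for a moderate change either way (edgeR adjusted p = 0.978).

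**Figure D2:**
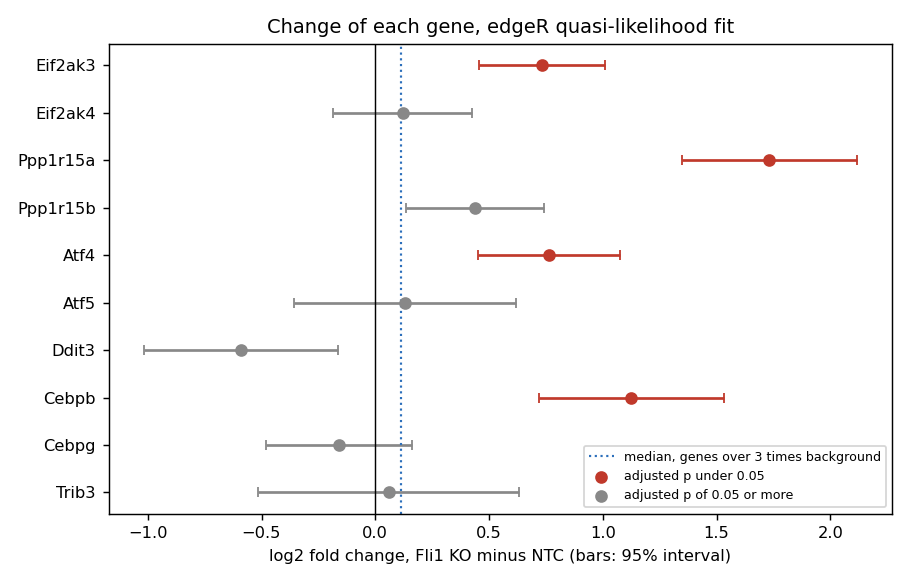
Log2 fold change of Fli1 KO against NTC (horizontal axis) for each gene from the edgeR fit, with its 95% interval as a bar. Genes with an adjusted p under 0.05 are red, and the dotted line is the median of the 7603 genes over 3 times background, 0.11. The intervals of Ppp1r15a and Cebpb lie highest, that of Ddit3 lies below 0, and those of Eif2ak4, Atf5, Cebpg and Trib3 cross 0.

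Ddit3, Trib3 and Atf5 were also set against Atf4 inside each library. The ratio of Ddit3 to Atf4 counts was 0.0437, 0.0511 and 0.0566 in Fli1 KO 1 to 3 and 0.1203 and 0.1377 in NTC 1 and NTC 2, a log2 difference of −1.35. The ratio of Trib3 to Atf4 was 0.0284, 0.0284 and 0.0337 in Fli1 KO and 0.0464 and 0.0519 in NTC (−0.71). That of Atf5 to Atf4 was 0.0579, 0.0455 and 0.0533 in Fli1 KO and 0.0710 and 0.0948 in NTC (−0.66). Each of the 6 ratios examined sets a called gene against one that was not called, so that groups without overlap add nothing separate here. These ratios share Atf4 as denominator in 3 cases, and so depend on each other. For each of the 6 the exact permutation test over libraries, two-sided, gave p = 0.2, the smallest that 3 libraries against 2 allow, so that none could pass a threshold (Benjamini-Hochberg adjusted p = 0.2 for each).

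**Figure D3:**
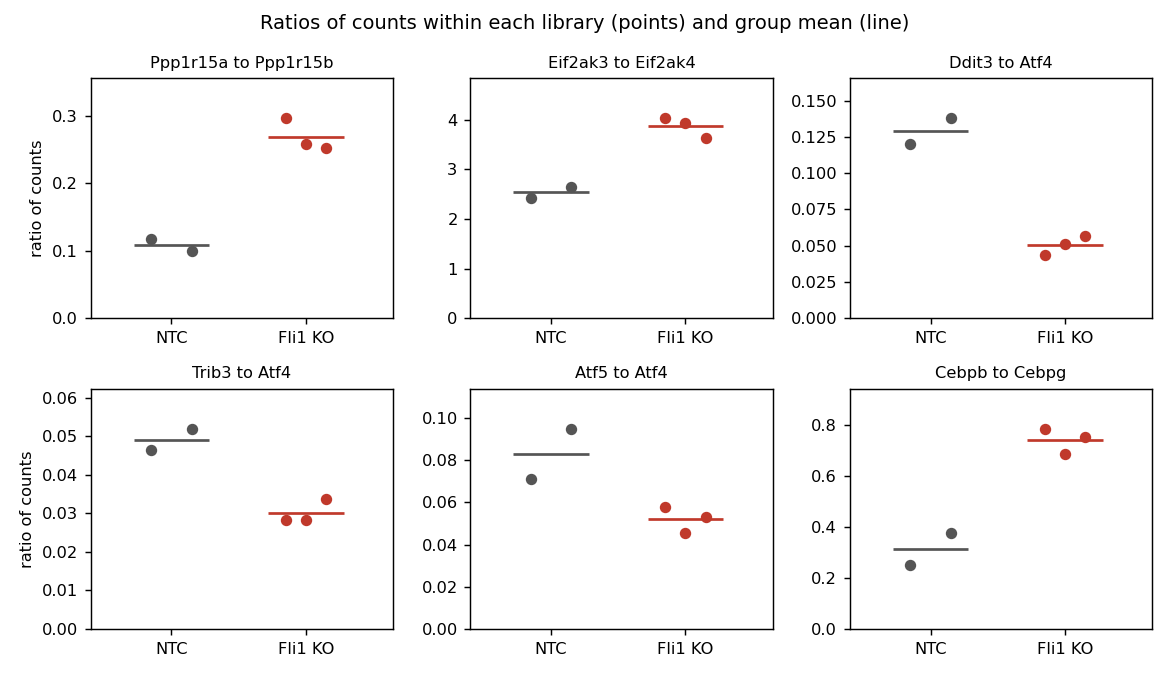
Ratio of the counts of 2 genes within each library (vertical axes, linear, from 0) for 6 pairs. Points are libraries, grey for NTC and red for Fli1 KO, and lines are group means. The ratios of Ppp1r15a to Ppp1r15b, of Eif2ak3 to Eif2ak4 and of Cebpb to Cebpg are higher in all Fli1 KO libraries, and those of Ddit3, Trib3 and Atf5 to Atf4 are lower.

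Levels can be compared between genes only per length, here as CPM per kb of annotated exon, which probe capture can distort. In NTC the order of these per-kb levels was Atf4 (50.7 and 39.2), Ppp1r15b (33.1 and 26.7), Eif2ak3 (15.7 and 15.2), Cebpb (8.76 and 10.7), Cebpg (9.31 and 7.62), Ddit3 (8.40 and 7.44), Ppp1r15a (7.38 and 5.05), Eif2ak4 (5.25 and 4.62), Atf5 (4.26 and 4.40) and Trib3 (2.61 and 2.26). Of the neighbours in this order, Cebpb overlapped with Cebpg, Cebpg with Ddit3 and Ppp1r15a with Eif2ak4, and the others did not overlap. In Fli1 KO the top 3 genes were again Atf4 (66.6 to 84.3), Ppp1r15b (35.2 to 43.7) and Eif2ak3 (24.2 to 27.3). Cebpb (16.8 to 26.0) and Ppp1r15a (17.4 to 24.7) came next and overlapped with each other and with Eif2ak3, and Ddit3 (4.69 to 6.12) overlapped with Eif2ak4 (4.95 to 5.73) and Atf5 (3.58 to 5.77). Background stood at 1.57 CPM per kb. Of the 10 genes 8 lay over 3 times background in the mean of all libraries, Atf4 the highest at 40.7 times, while Atf5 (2.92 times) and Trib3 (1.60 times) did not.

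Groups that do not overlap are common in this comparison. Of the 10 genes 5 were higher in all Fli1 KO libraries than in both controls and 1 was lower, where 11.9% of all tested genes were higher in this way and 13.7% lower. Among genes over 3 times background the shares were 26.3% and 7.8%. At an unadjusted p under 0.05 there were again 5 higher and 1 lower, against 5.23% and 3.71% of all tested genes and 15.4% and 2.87% of genes over 3 times background. The median log2 fold change of the 10 genes was 0.28, that of all tested genes −0.02 and that of genes over 3 times background 0.11.

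The libraries also moved within groups. Fli1 KO 2 was the lowest of the 3 Fli1 KO libraries for all 10 genes, as it was for 65.1% of the genes over 3 times background and 33.9% of all tested genes. NTC 1 exceeded NTC 2 for 8 of the 10 genes (71.0% of genes over 3 times background), the exceptions being Atf5 and Cebpb. Part of the spread within groups was thus shared by these genes with most others at a similar level. Gm10800 took its largest share of counts within each group in the same libraries, Fli1 KO 2 and NTC 2. Its part in the order of the libraries was not tested.

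**Figure D4:**
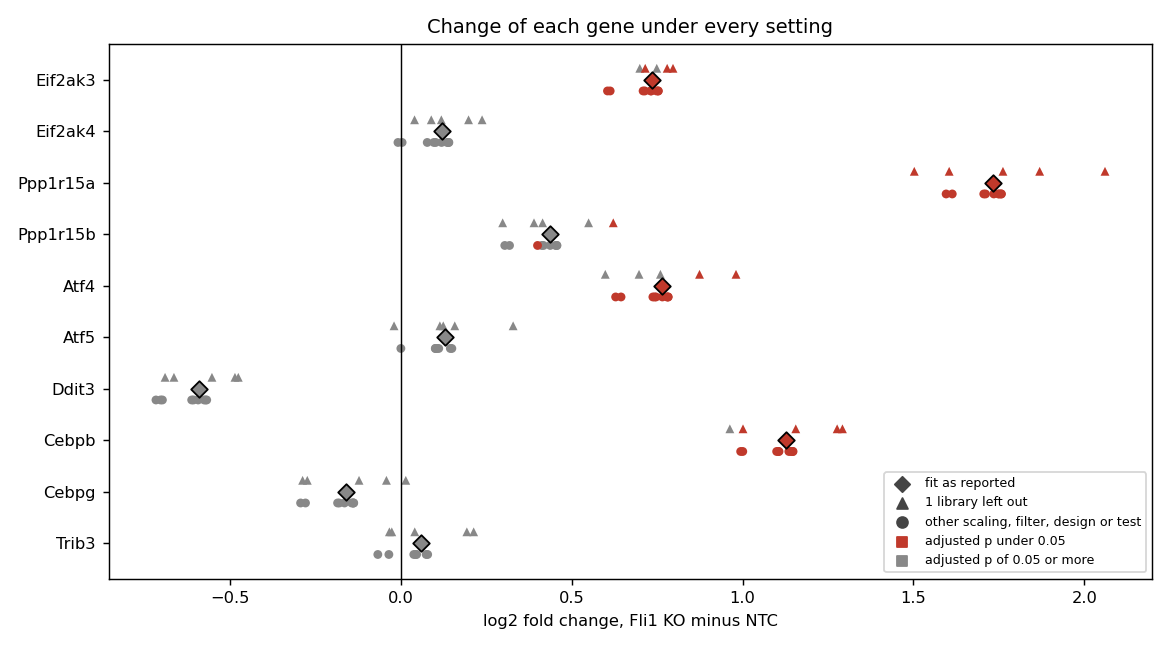
Log2 fold change of Fli1 KO against NTC (horizontal axis) for each gene in the fit as reported (diamonds), with 1 library left out (triangles) and with another scaling, filter, design or test (circles). Red marks an adjusted p under 0.05. Ppp1r15a is red throughout, Ddit3 is grey and negative throughout, and the triangles of Eif2ak3, Atf4 and Cebpb are in part grey.

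The mRNAs of this pathway are known for upstream open reading frames, and these were counted in the leaders of the principal GENCODE transcripts. Upstream ATG codons numbered 3 in Eif2ak3, 7 in Ppp1r15a, 3 in Ppp1r15b, 3 in Atf4, 2 in Atf5, 2 in Ddit3 and 1 in Cebpg, and 0 in Eif2ak4, Cebpb and Trib3. At least 1 was present in 54.3% of 20775 genes with a leader, and at least 2 in 33.4%. A reading frame that runs past the main start codon, the feature through which Atf4 translation responds to eIF2 phosphorylation, was found in Eif2ak3, Ppp1r15a, Atf4 and Atf5 (17.8% of genes). Of these 4, Atf5 was not called. Of the 4 genes that rose, Cebpb held no upstream ATG. The leaders were 91 (Eif2ak4) to 764 bases long (Ppp1r15a).

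Regulators of the kinases were examined beside Eif2ak3. Of 9 tested, Hspa5, the ER chaperone BiP that keeps PERK inactive, rose (227 and 191 CPM in NTC, 400, 268 and 360 CPM in the Fli1 KO libraries, a log2 change of 0.71, edgeR adjusted p = 0.0434) and 0 fell, with a list median of 0.10. The call of Hspa5 ended without Fli1 KO 1 (0.60, adjusted p = 0.482), Fli1 KO 3 (0.69, 0.426) or NTC 2 (0.60, 0.224), with median-of-ratios factors (0.73, 0.0570) and with library size alone (0.58, 0.0904). Impact, an inhibitor of GCN2 activation, stood at 22.3 ± 1.36 CPM (SD, n = 2) in NTC and 37.5 ± 8.58 CPM (SD, n = 3) in Fli1 KO (0.75, edgeR adjusted p = 0.0653). The 2 further kinases of eIF2, Eif2ak1 and Eif2ak2, had log2 fold changes of 0.10 and 0.03, near that of Eif2ak4. A list of 13 held genes of eIF2, its exchange factor eIF2B, protein phosphatase 1 and their adaptors, with Eif2d, which encodes no subunit of these. Of the 13, 0 were called by edgeR, 0 by DESeq2 and 0 by limma-voom. At an unadjusted p under 0.05, 3 of the 13 were higher and 0 lower, where 15.4% of genes over 3 times background were higher. Nck1, an adaptor that binds eIF2, had the smallest p (0.38, interval 0.09 to 0.67, edgeR adjusted p = 0.360). Without NTC 1, 2 of these 13 were called.

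A list of further bZIP genes, which leaves out the 10, held 1 called gene. Of 13 tested (with Trib1, Trib2, Nrf1 and Cebpz, which are not bZIP proteins), 0 were called higher and Nfe2l2, the gene of the oxidative stress factor NRF2 and itself a PERK substrate, fell (35.7 and 42.2 CPM in NTC, 22.4, 22.3 and 25.6 CPM in the Fli1 KO libraries, a log2 change of −0.73, edgeR adjusted p = 0.0261). Its call ended in each fit without a Fli1 KO library (−0.78 to −0.68, adjusted p = 0.0826 to 0.260), without NTC 2 (−0.60, 0.256) and with DESeq2 (−0.71, 0.0656). The median was −0.03. Atf3, which ATF4 and CHOP induce under strong stress, stood near background, with means of 4.08 CPM in the controls and 4.48 CPM in Fli1 KO.

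Of the targets of ATF4 and CHOP a single gene was called. Of 35 tested, 26 had a positive log2 fold change and 9 a negative one, with a median of 0.20. At an adjusted p under 0.05, 1 was called higher and 0 lower. The shares called higher were 0.458% of all tested genes and 1.71% of genes over 3 times background. The share with a positive value was 74.3%, against 70.5% of genes over 3 times background and 47.6% of all tested genes. Only 20 of the 35 targets lay over 3 times background, so neither share is like for like. Among the 9 with a negative value, Slc7a1 and Slc1a5 alone lay over that line. The called gene was Eif4ebp1, a repressor of cap-dependent translation (13.4 and 10.4 CPM in NTC, 35.7, 24.3 and 29.6 CPM in the Fli1 KO libraries, a log2 change of 1.31, edgeR adjusted p = 0.00105). Further genes had an unadjusted p under 0.05 without being called. They were Asns, asparagine synthetase (0.83, edgeR adjusted p = 0.192), and the transporter chains Slc7a5 (0.89, 0.456) and Slc3a2 (0.50, 0.212). The others were the tRNA synthetase genes Gars (0.40, 0.498) and Nars (0.36, 0.491), and Sesn2, an inhibitor of mTORC1 (0.39, 0.524). For Slc7a5, Gars and Nars the groups overlapped. Ero1l, an ER oxidase gene, had the highest value of the list without being called (251, 131 and 184 CPM in the Fli1 KO libraries, 98.8 and 43.7 CPM in NTC, a log2 change of 1.40, SE 0.51, adjusted p = 0.573), and its libraries spread widely in both groups. The genes with an unadjusted p under 0.05 were 7 of 35 with Eif4ebp1, and 0 targets with such a p had a negative change. Of these 7, Asns alone (2.12 times) lay under 3 times background. At that p 5.23% of all tested genes and 15.4% of genes over 3 times background were higher. The number of targets called was 3 without Fli1 KO 2 and 9 without NTC 1. The cell death genes Bbc3 and Bcl2l11 had log2 fold changes of 0.09 and 0.14, and Chac1 and Trib3, which ATF4 and CHOP switch on together, were both within 3 times background.

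The remaining arms of the ER stress response and the early response genes were set beside these values. Of 19 genes under IRE1 and ATF6, Xbp1 rose (63.6 and 46.2 CPM in NTC, 129, 109 and 128 CPM in the Fli1 KO libraries, a log2 change of 1.15, edgeR adjusted p = 2.21e-04) and 0 fell, with a median of 0.33. At an unadjusted p under 0.05, 9 of the 19 were higher and 0 lower, against 5.23% and 3.71% of all tested genes. Among genes over 3 times background these shares were 15.4% and 2.87%. Without NTC 1, 4 of the 19 were called. Of 23 early response genes, which are transcribed soon after a signal without new protein synthesis, 15 were called higher and 0 lower, with a median of 1.51. Among all tested genes 0.458% were called higher, and among genes over 3 times background 1.71%. The list was chosen with earlier results of these data known, so its number of calls is a description only. Ier2, Cd69 and Rhob were at 2.34, 1.99 and 1.97, and Egr1 at 4.06. The changes of Ppp1r15a and Cebpb, 1.73 and 1.13, lay within the range of this list, 0.08 to 4.06. So did those of Eif2ak3, Atf4, Ppp1r15b, Atf5 and Eif2ak4, so this wide range does not set any of these genes apart. The lists share no gene with the 10, and whether early response genes account for any change among the 10 was not tested.

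**Figure D5:**
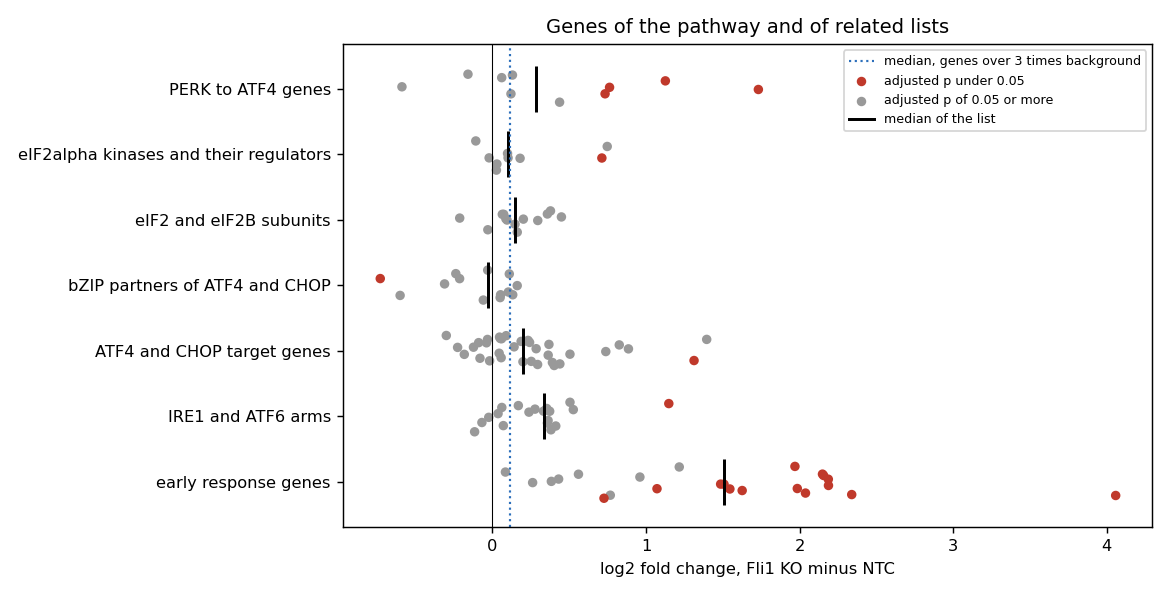
Log2 fold change of Fli1 KO against NTC (horizontal axis) for the 10 genes and for the genes of 6 related lists. Each point is a gene, red where its adjusted p is under 0.05, black bars are list medians, and the dotted line is the median of genes over 3 times background. Early response genes lie furthest to the right (median 1.51), while the lists of eIF2 genes, bZIP factors and targets have medians from −0.03 to 0.20.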

How the data were processed

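Total RNA from NK cells was made into libraries by probe enrichment, per the labels' protocols. FastQC 0.12.0, Trimmomatic 0.39, STAR 2.7.11 and mm10 are named in the submitters' processing notes. The sources used here do not give the counter, its strand setting or its annotation. Per the deposited file, values are raw whole-number counts per Ensembl ID for the 5 libraries. Of 56691 IDs, 52073 matched a symbol. Coordinates, exon lengths and leaders came from GENCODE M21 on GRCm38, promoter windows from RefSeq.

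Genes were kept with edgeR's filterByExpr (minimum 10 counts), scaled with TMM and tested across all 30580 genes with the robust quasi-likelihood test (edgeR 4.0.16, R 4.3.3), adjusted with Benjamini-Hochberg. Called means an adjusted p under 0.05. Background was 1.57 CPM per kb, the density on 1453 autosomal receptor genes. Intervals of counts are exact Poisson at 95% and cover counting error only. Ratios of counts used a prior count of 0.5 on the log2 scale. The alternatives were other scalings, filters, DESeq2 1.42.0, limma-voom (limma 3.58.1), a replicate block and each library left out. On simulated data with 200 changed genes, the fit of Fli1 KO against NTC on 30580 genes recovered 28.4% of those changed 1.5-fold, 83.6% of 2-fold and 100% of 4-fold. Of its 156 calls 15 (9.62%) were false, above the nominal 5%. The changed genes were drawn only from genes with higher counts, so genes counted as low as Atf5 and Trib3 are not covered. Every simulated gene was given the same spread, unlike real genes, so these rates need not hold for genes that vary more.

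All 10 genes are named, with the called genes of each related list (up to 4 by adjusted p) or the gene with the smallest p, and further list members as examples. The members and lists were chosen with earlier results of these data known.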

Additional observations from a re-analysis of the deposited data

How the results depend on the processing

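Of the 10 genes, 4 were called higher and 0 lower under every other scaling, filter and test. With 1 library left out the number called higher ranged from 1 (without Fli1 KO 1, Ppp1r15a alone) to 5. Libraries of the 2 groups share only a number. Across 7603 genes, deviations from the group means correlated with those of NTC 1 at 0.289 for Fli1 KO 1, −0.428 for Fli1 KO 2 and 0.199 for Fli1 KO 3, which has no NTC library of its number, and with NTC 2 at the same sizes and opposite signs, so they cannot settle pairing by number. With the replicate number as a block, 5 of the 10 genes were called, Ppp1r15b (0.40, edgeR adjusted p = 0.0125) being added. Calls over all genes then numbered 728 higher and 193 lower. This block leaves the fewest residual degrees of freedom from which a spread can be estimated. Fli1 KO 3, alone in its block, adds nothing to the contrast in that fit. The block called 2 kinase regulators, 1 eIF2 gene, 5 targets and 3 genes of IRE1 and ATF6. Over all genes there were 140 higher and 27 lower in the fit as reported, 92 and 71 with library size alone, which moved the median of all genes to −0.14, 239 and 56 with no filter, and 59 lower among genes over 3 times background. Without 1 library they ranged from 46 to 703 higher and 3 to 174 lower. A lone NTC library was taken to vary as Fli1 KO libraries do.

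Kinase regulators called numbered 0 with median-of-ratios factors or library size alone, 2 with upper-quartile factors or no filter, and 0 to 2 without 1 library. bZIP genes called were 0 with DESeq2 and 0 to 1 without 1 library, eIF2 genes 0 to 2, targets 1 to 9, and IRE1 and ATF6 genes 1 to 4. Of the 10 log2 fold changes, 4 changed sign in some setting. With library size alone Eif2ak4 was −0.0086, Atf5 −9.2e-05 and Trib3 −0.068, and with the block Trib3 was −0.035. With 1 library left out Atf5 ranged from −0.020 (without Fli1 KO 1) to 0.328, Cebpg from −0.288 to 0.0143 (without NTC 1) and Trib3 from −0.0337 (without Fli1 KO 3) to 0.213. The causes were not tested. Atf5 and Trib3 were left out of the fit on genes over 3 times background, and DESeq2 gave them no adjusted p. Their 23 to 57 counts per library limit what can be seen.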
